A study of Homo sapiens with 8 samples.

Results

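The keratin gene clusters and the epidermal differentiation complex were examined for sites of changed chromatin accessibility. Members were the sites of the authors' lists whose centre fell in 3 intervals of hg19: the type I keratin cluster on chromosome 17 (38800001 to 39850000), the type II keratin cluster on chromosome 12 (52500001 to 53400000) and the epidermal differentiation complex on chromosome 1 (151900001 to 153700000). There were 32 members among 14191 listed sites. Of these, 19 were "opened sites", from the list of 8154 sites whose name says that the morphogens open them, and 13 were "p63-closed sites", from the list of 6037 sites whose name says that the morphogens open them and p63 closes them.

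The series assayed open chromatin by ATAC-seq, which marks DNA that the transposase Tn5 can reach, in H9 human embryonic stem cells and surface ectoderm made from them. There were 8 samples, 2 in each of 4 groups. Wild-type cells were sampled at day 0, without morphogens, and at day 7 of treatment with retinoic acid (1 uM) and BMP4 (5 ng/ml). Cells of genotype p63-/- were sampled at day 7 of the same treatment. Cells carrying a TetO:Tp63+/- transgene were sampled at day 0 after 2 days of doxycycline (2 ug/ml). No list is attached to them, so no change in them is described below. Whether they helped to define the sites is not stated. How many clones stand behind each modified line is not stated. The labels attach the opened list to wild-type cells at day 0 and day 7, and the p63-closed list to wild-type and p63-/- cells at day 7. Each list gives positions and a site number only. Read depth is therefore unknown, there is no value per sample, no test between cultures could be made, and the direction of each change is the authors' own.

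Keratins are the intermediate filament proteins of epithelia, and a filament needs a type I keratin paired with a type II keratin. KRT8 (type II) and KRT18 (type I) form the pair of simple, single-layered epithelia, which surface ectoderm is. KRT5 (type II) and KRT14 (type I) form the pair of the basal layer of stratified epithelia such as epidermis, and p63 is a known activator of both genes. KRT18 is unusual in lying among the type II genes, beside KRT8. The epidermal differentiation complex holds genes for the late, cornified layers: filaggrin (FLG), loricrin, involucrin (IVL) and the SPRR and LCE families. The SPRR and LCE families encode small envelope proteins. The complex also holds genes for the calcium-binding S100 proteins.

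The order of these genes was taken from the RefSeq gene table, which is on GRCh38.p14, a different build from the lists, so no gene position was set against a site. In order of rising coordinate, KRT8 and KRT18 are the last of 27 protein-coding keratin genes on chromosome 12, at ranks 26 and 27, and EIF4B and TNS2 follow them. KRT5 stands at rank 13 of 27, between KRT6A and KRT71, with 14 keratin genes after it. KRT14 stands at rank 26 of 28 on chromosome 17, between KRT9 and KRT16, with 2 keratin genes (KRT16 and KRT17) after it.

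The clusters differed in which list their sites came from. The type I cluster held 2 opened and 7 p63-closed sites, the type II cluster 10 opened and 1 p63-closed, and the epidermal differentiation complex 7 opened and 5 p63-closed. The p63-closed share was 77.8% in the type I cluster (exact Clopper-Pearson 95% interval 40.0 to 97.2%), 9.09% in the type II cluster (0.230 to 41.3%) and 41.7% in the epidermal differentiation complex (15.2 to 72.3%). Over the 3 clusters it was 40.6% (23.7 to 59.4%), beside 43.6% of the 13758 autosomal sites. The opposite leanings of the keratin clusters thus sum to a mix near that of the autosomes. The intervals cover counting error only and take each site as independent, although neighbours often share a list, and the difference between the clusters was not tested.

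**Figure D1:**
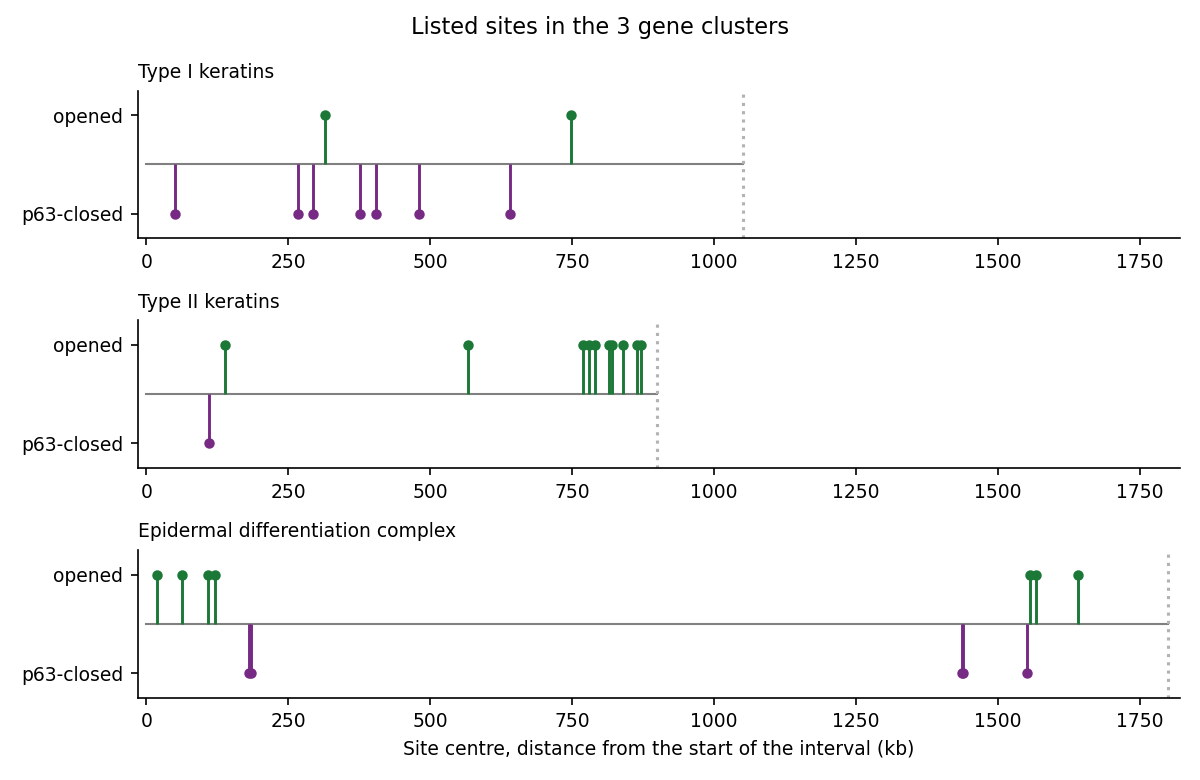
Centres of the 32 member sites, as distance in kb from the start of each interval; opened sites point up, p63-closed sites point down, and the dotted line is the end of the interval. In the type II cluster 8 opened sites crowd the far end, in the type I cluster 7 of 9 sites point down, and the epidermal differentiation complex is bare for 1251 kb.

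Opened sites were densest in the type II cluster. They lay there at 11.1 per Mb (exact Poisson 95% interval 5.33 to 20.4), which is 3.98 times the autosomal density of 2.79 per Mb (interval of the ratio 1.91 to 7.31). Windows of 0.9 Mb laid end to end along the autosomes had a median of 2 opened sites, and 45 of 3074 (1.46%) held 10 or more. The single p63-closed site is near the windows' median of 1. By the numbered catalogue from which the site names come, 15.4 of every 1000 entries in the interval were opened sites, against 4.42 on the autosomes.

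The opened sites of the type II cluster were not spread evenly. The first, from 52636669 to 52638576, lay 26.4 kb past the cluster's p63-closed site (52609112 to 52610314), and the next followed 427 kb later, from 53065844 to 53067635. The other 8 lay within 103.8 kb, from 53267527 to 53371360, which is 11.5% of the interval. This is the end of the interval at which the gene order puts KRT8 and KRT18; which of the sites lie in either gene, between them, or in the genes that follow was not determined.

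These 8 sites began at 53267527, 53278094, 53288682, 53314311, 53318568, 53338886, 53363296 and 53369760. Their widths ran from 1148 bp, in the site ending at 53364443, to 2259 bp, in the site ending at 53290940. Together they covered 12393 bp, 11.9% of the stretch. The gaps between them ran from 2.98 to 23.4 kb, where the median gap between neighbouring listed sites on the autosomes was 93.2 kb (quartiles 28.3 and 251 kb). Every gap in the stretch was thus under the lower quartile. Of 7599 autosomal sets of 8 consecutive opened sites, 3 (0.0395%) had a span this short, this one included, and the median span was 2209 kb. The other two ran on chromosome 11 from 1947797 to 2012505 and on chromosome 6 from 159126486 to 159206454. The stretch of 8 was singled out after its positions had been seen, so its rank is a description.

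The other 796 kb of the type II interval held 2 opened sites, or 2.51 per Mb (0.304 to 9.07), and 1 p63-closed site. Since the densest part was taken out after it had been seen, the rest had to be sparser, and 2 sites do not fix its density. From the first opened site of the cluster onwards no p63-closed site was listed until past 54535468, well beyond the interval. Of 2717 autosomal runs of opened sites, 18 (0.662%) were as long as this run of 17 or longer, this one included. Only 10 of the 17 sites are members, and the rest lie beyond the interval. Ending the interval 100 kb earlier and starting it 100 kb later left 5 opened sites of the 10, since that boundary falls inside the stretch, and joining sites within 10 kb left 6.

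**Figure D2:**
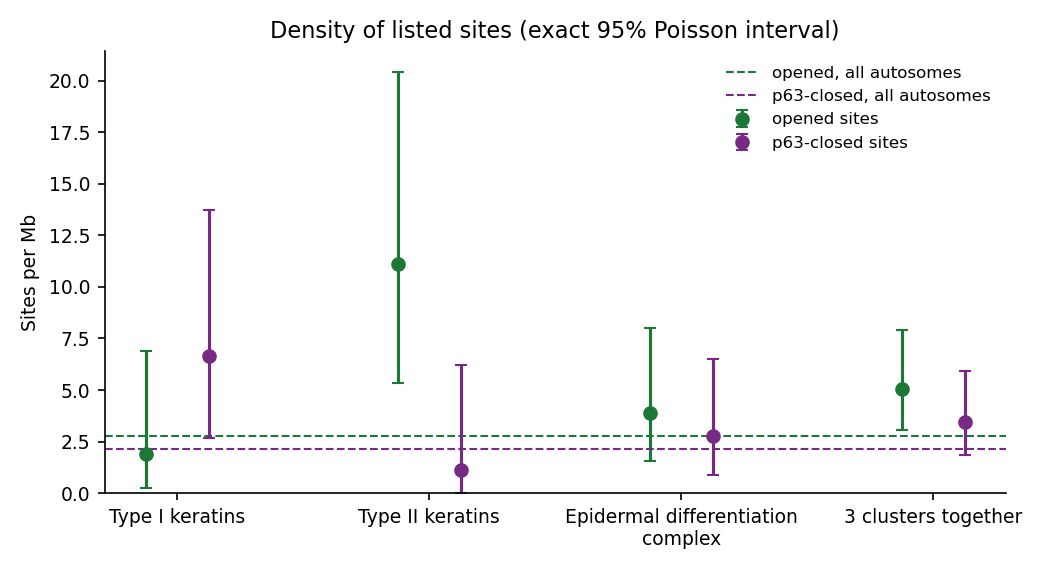
Listed sites per Mb in each cluster and in the 3 together; points are the observed densities, bars the exact 95% Poisson intervals, and dashed lines the densities over all autosomes. Opened sites of the type II cluster (11.1 per Mb) and p63-closed sites of the type I cluster (6.67 per Mb) have intervals above the autosomal line of their list; the other single-cluster intervals include it.

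The type I cluster showed the reverse mix. Its 7 p63-closed sites lay at 6.67 per Mb (2.68 to 13.7), 3.08 times the autosomal 2.16 per Mb (interval of the ratio 1.24 to 6.35). Of 2632 autosomal windows of 1.05 Mb, 167 (6.35%) held 7 or more, against a median of 2. Its 2 opened sites equalled the windows' median for that list. An excess of p63-closed over opened sites of 5 or more was found in 157 windows (5.97%), so this cluster stands in the upper part of the windows but is not rare among them.

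The p63-closed sites of the type I cluster held no close pairs. Their first bases were 38849980, 39066268, 39092615, 39175643, 39203590, 39278638 and 39440177, and widths ran from 1220 bp, in the site at 39066268, to 2197 bp, in the site at 39203590. They spanned 592 kb, where 5873 autosomal sets of 7 consecutive p63-closed sites had a median span of 2146 kb and 8.22% spanned as little. All 7 were taken from a single interval of 1.05 Mb, so their span was bound to be under that median. The comparison thus mostly restates their number. No pair of them lay within 10 kb, and joining such sites left all 7. The nearest were those at 39066268 and 39092615, 25.1 kb apart, and those at 39175643 and 39203590, 26.5 kb apart.

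An opened site of 2911 bp, from 39112608 to 39115518, lay among the p63-closed sites, 18.1 kb past the one that begins at 39092615. Of the 8154 opened sites, 467 were as wide or wider. The other opened site, from 39546240 to 39547786, was the last listed site of the cluster. After it the interval ran on for 302 kb without a listed site, and the next listed site on the chromosome lay 916 kb away. Only 2.85% of autosomal gaps were as long. The gene order puts KRT14, KRT16 and KRT17 towards this end, but how far the bare stretch and these genes coincide was not determined. A site missing from the lists is not shown to be closed or unchanged: by the lists' names, one that was already open at day 0 would be in neither.

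**Figure D3:**
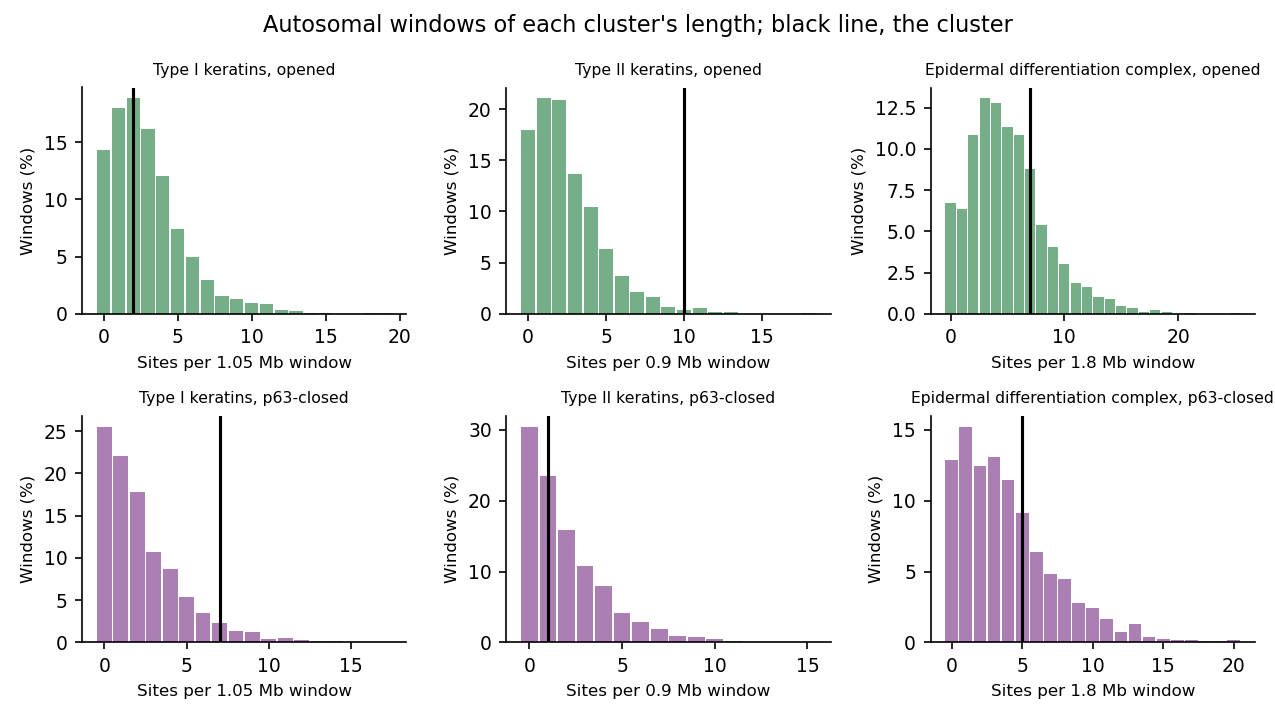
Share of autosomal windows (percent) by the number of listed sites they hold, for windows of each cluster's length, with opened sites above and p63-closed sites below; the black line is the cluster's own count. The line is far to the right for opened sites in the type II cluster (10, where 1.46% of windows hold as many) and nearer the middle in the epidermal differentiation complex.

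In the epidermal differentiation complex neither list was dense. Opened sites lay at 3.89 per Mb (1.56 to 8.01) and p63-closed sites at 2.78 per Mb (0.902 to 6.48), and both intervals include the autosomal densities. Of 1531 windows of 1.8 Mb, 28.1% held 7 or more opened sites and 34.9% held 5 or more p63-closed sites. More marked in the complex was where its sites lay. The first 6 sites fell within 168 kb at the start, the last 6 within 205 kb near the end, and nothing was listed from 152085312 to 153336324.

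This bare stretch of 1.25 Mb made up 69.5% of the interval. Of 13736 autosomal gaps between neighbouring listed sites, 143 (1.04%) were as long. The numbering of the sites on either side leaves room for 632 catalogue entries. Of these 0 were listed, which allows a share of up to 0.475% (3 counts of the total). What a catalogue entry stands for is not given, so entries need not be accessible sites in these cells. On the autosomes 0.785% of entries were listed, which would give 4.96 sites. As the longest gap of the interval it was bound to be long, so these values describe it and do not test it. An empty run of catalogue entries this long was not particular to the complex. The gap of 916 kb after the last type I site, partly beyond that interval, left room for 631 entries, also with 0 listed. In the gene order the complex has 55 genes of these families. S100A10 and S100A11 come first, then trichohyalin (TCHH) and the filaggrin family (ranks 3 to 9), 19 LCE genes from rank 10, IVL, 11 SPRR genes and loricrin at rank 41, and the other 14 S100 genes come last. The middle ranks are thus the cornified envelope genes and the outer ones mostly S100 genes; which genes fall in the bare stretch was not determined.

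The sites of the complex also fell into blocks by list. Along the chromosome came 4 opened, 5 p63-closed and 3 opened sites. Such blocks were not rare on the autosomes. Counted past the ends of the interval, the opened runs held 7 and 4 sites. Of autosomal opened runs, 9.09% and 24.4% were as long or longer. For the p63-closed run of 5 sites, which lies on both sides of the bare stretch, the value was 9.43% of p63-closed runs. The first block, of opened sites, held those from 151916925 to 151920058 (3134 bp), 151960689 to 151963003 (2315 bp), 152006788 to 152010356 (3569 bp) and 152019991 to 152021443 (1453 bp). The final block, also of opened sites, held those from 153455949 to 153457209 (1261 bp), 153465562 to 153466501 (940 bp) and 153537961 to 153541770 (3810 bp). The last is the widest of all 32 members, and 77 of the 8154 opened sites were as wide or wider. The complex thus held both the widest and, at 940 bp, the narrowest member.

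Of the p63-closed sites in the complex, 4 formed close pairs, one on each side of the bare stretch. The sites from 152079701 to 152082104 (2404 bp) and from 152082694 to 152085311 (2618 bp) were 589 bp apart. The sites from 153336325 to 153337302 (978 bp) and from 153337477 to 153338503 (1027 bp) were 174 bp apart. Both pairs have consecutive catalogue numbers. These 4 sites are the only p63-closed members with another of their list within 1 kb, 4 of 13, where on the autosomes 174 of 6005 (2.90%) had one. Within 10 kb, the distance used to name pairs, the count was still 4 of 13, beside 15.5% of autosomal p63-closed sites. Within 50 kb it was 8 of 13, beside 42.4%. Joining sites within 10 kb left 3 p63-closed sites in the complex. The remaining p63-closed site, from 153450648 to 153452197, lay 3.75 kb before an opened site, which was the closest approach of the lists in the 3 clusters. In all, 5 pairs of sites from different lists lay within 50 kb, 2 in the type I cluster, 1 in the type II cluster and 2 here, with gaps of up to 45.1 kb.

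**Figure D4:**
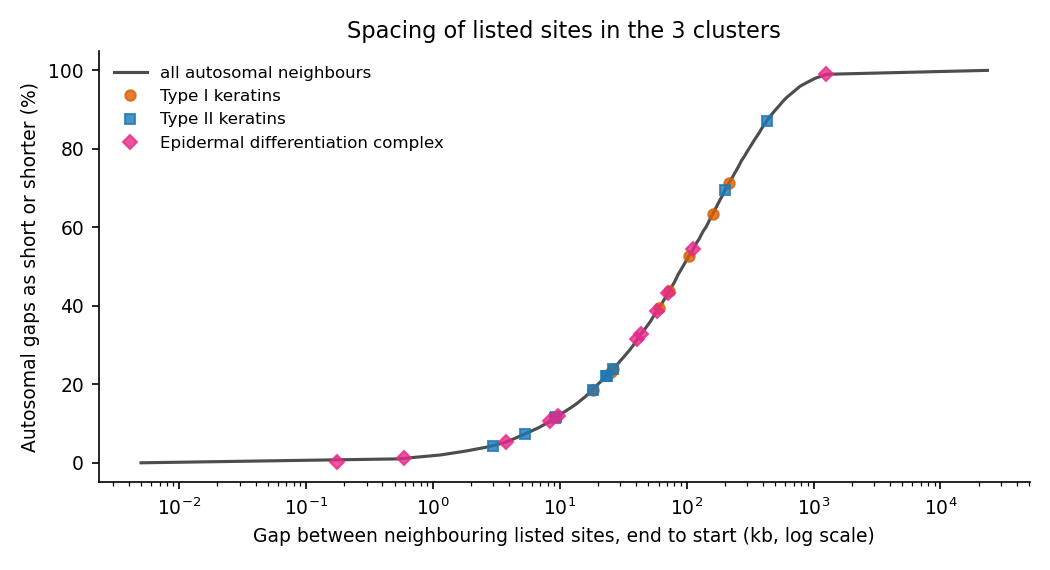
Gap between neighbouring listed sites (kb, log scale) against the percent of autosomal gaps as short or shorter; the line is all 13736 autosomal gaps and the symbols are the gaps within each cluster. Gaps of the type II stretch sit between 2.98 and 23.4 kb, and the epidermal differentiation complex supplies both the shortest gaps (0.174 and 0.589 kb) and the longest (1251 kb).

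Across the 3 clusters, 23 of 29 pairs of neighbours shared a list (79.3%), beside 60.7% of 13736 autosomal pairs. By cluster the counts were 5 of 8 (type I), 9 of 10 (type II) and 9 of 11 (epidermal differentiation complex). The type II cluster held 10 opened sites and 1 p63-closed site, so most of its pairs had to share a list. The shares thus partly restate the mix of lists in each cluster. Among opened members, 11 of 19 had another opened site within 10 kb, against 15.5% of autosomal opened sites, and 7 of these 11 were in the type II stretch. Within 1 kb it was 0 of 19, against 2.32%, and within 50 kb 14 of 19, against 40.95%. The median width was 1601 bp for opened members (1597 bp in the whole list) and 1550 bp for p63-closed members (1531 bp). By cluster, the median was 2315 bp for the 7 opened sites of the epidermal differentiation complex and 2229 bp for the 2 of the type I cluster. For the 10 of the type II cluster it was 1481 bp. In the complex the widths of 3134, 3569 and 3810 bp were reached by 305, 137 and 77 of the 8154 opened sites. Its opened sites of 940, 1261 and 1453 bp were narrower than the list's median. The difference in width was not tested.

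The ends of the intervals bore on the opened members more than on the p63-closed ones. Shortening each interval by 100 kb at both ends left 12 of 19 opened and 12 of 13 p63-closed sites, and lengthening each by 100 kb gave 22 and 13. The nearest sites on either side of an end were at the start of the epidermal differentiation complex, where an opened site centred 18.5 kb inside counted and an opened site centred 17.8 kb outside (151881303 to 151883105) did not. At the end of the type II cluster the last member was centred 29.4 kb inside, and the next opened site (53464560 to 53465298) 64.9 kb outside.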

How the data were processed

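ATAC-seq had been run on 8 H9 samples, and the data analysed were the authors' 2 deposited lists of sites. Each list has 4 columns without a header (chromosome, start, end, site name), so the deposited values are positions and carry no other unit, score or signal. Per the submitters' processing notes, FastQC, Bowtie2, SAMtools, MACS2 and DESeq2 were used and the build was hg19 (GRCh37), with versions, thresholds and any pooling not given in the sources used here. How the lists were thresholded therefore decides which sites could be counted.

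Sites were assigned to an interval by their centre. Positions are printed 1-based. Densities were set against the autosomes from the first to the last listed site of each, and against windows of equal length laid end to end over the same span, assembly gaps included. Catalogue entries were interpolated from the numbers in the site names; 6 jumps in the numbering were left out. Gaps run from the end of a site to the start of the next. Intervals are exact at 95% (Poisson, Clopper-Pearson) and cover counting error only. No significance test was made. Assignment, joining and interpolation were checked on made-up sites with known answers. The sites named were the ends, the widest and narrowest, mixed pairs within 50 kb, pairs of the same list within 10 kb, and the longest bare stretch; the stretch of 8 sites and the comparisons with windows, spans and runs were added later. The intervals, members and lists were chosen with earlier results of these data known. Python 3.11.15, numpy 2.4.6, pandas 2.3.3, scipy 1.17.1 and matplotlib 3.10.9 were used.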

Additional observations from a re-analysis of the deposited data

How the results depend on the processing

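No paired analysis was possible because each list gives positions alone. Likewise no replicate was left out, no stricter threshold could be tried, and the distances to KRT5, KRT14, KRT8 and KRT18 were not run, as no hg19 annotation was given. Of 62 alternative values, 54 stayed within 1.5 times the count or within the value's own 95% interval and 8 moved; many could hardly move, as no member crosses an interval's end. Opened sites in the 3 clusters went from 19 to 12 with intervals shortened by 100 kb at both ends, to 9 without the type II cluster and to 12 without the epidermal differentiation complex. The p63-closed sites went from 13 to 6 without the type I cluster and to 8 without the epidermal differentiation complex. These settings hold fewer sites by construction. The density of opened sites relative to the autosomes was 1.81 for the 3 clusters, 1.92 per catalogue entry and 1.13 without the type II cluster; for p63-closed sites it was 1.60, 1.70 and, without the type I cluster, 1.03. The p63-closed share ranged from 26.1% without the type I cluster to 57.1% without the type II cluster. For counts and densities, leaving out a cluster was chosen after seeing the data.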
